A study of Mus musculus with 378 samples.

Results

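Peptide hormones are made as longer precursors that a small set of enzymes cut, trim and modify inside secretory granules. The 7 genes described here encode those enzymes and their helpers. They are Pcsk1, Pcsk2, Cpe, Scg5, Pam, Pcsk1n and Ero1lb, and they were taken by symbol from the 22180 genes of the deposited count table, by a rule that uses no measured value but with earlier results of these data known. Their RNA was measured in pancreatic islets, the clusters of endocrine cells that make insulin, glucagon and other hormones, by sequencing polyadenylated RNA. The islets came from mice of the Diversity Outbred stock, where each animal carries its own mixture of founder genomes. There was 1 library per mouse. The labels give the same high-fat, high-sugar diet (45% fat) and the same added ERCC control RNA for females and males alike, name no other treatment, and do not give ages. A library holds whole islets, so its RNA is a mixture of cell types.

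The single contrast in the labels is sex, female against male. The titles number the mice from 21 to 420. Libraries were also divided into 4 bands of 100 mouse numbers, because band 4 stands apart in these data. Bands 1 to 4 hold 46, 46, 49 and 47 females, and 45, 48, 50 and 47 males (190 in all). The labels do not say what a band is, and females precede males in the numbers of each band apart from 1 female, so sex and this order within a band cannot be told apart. The libraries held 15.1 M to 68.8 M counts (median 34.8 M), and those of band 4 held fewer than the others (median 24 M for females, 24.2 M for males). Xist, the RNA of the silenced X chromosome, had a median of 1359 CPM (counts scaled to library size) in females and 0.744 CPM in males, and 4 genes of the Y chromosome (Uty, Ddx3y, Kdm5d and Eif2s3y) had counts in males alone. In 2 females Xist lay below the highest male (17.9 CPM), and without them the sex calls of the 7 genes stayed as given here. Genes that define the labelled tissue were high: median levels per transcript length were 180618 TPM (counts scaled to exon length and library size) for Ins2, 78942 TPM for Ins1 and 28203 TPM for Gcg. Markers of exocrine acinar cells were also present, summing to 120.9 to 40795 CPM in females and 157.9 to 65784 CPM in males over 13 genes.

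Prohormone convertases cut precursors at pairs of basic residues. In beta cells, PC1/3 (the product of Pcsk1) and PC2 (Pcsk2) together cut proinsulin, and in alpha cells PC2 releases glucagon from proglucagon. Each convertase has a partner: Scg5 encodes 7B2, which binds pro-PC2, helps it to mature and inhibits it, and Pcsk1n encodes proSAAS, a precursor whose fragments inhibit PC1/3. Carboxypeptidase E (Cpe) then removes the basic residues left at the new ends. Pam encodes the enzyme that amidates the ends of many peptides, islet amyloid polypeptide among them, and it needs copper and ascorbate. Ero1lb encodes an oxidase of the endoplasmic reticulum, abundant in beta cells, which supplies the oxidising power for the disulphide bonds of proinsulin.

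Promoters are shown for the pair of genes whose levels moved together most closely, Pcsk1 and Ero1lb, and for Pcsk2, the convertase whose level was most even between mice. Each run is 300 bases, 250 before to 50 after the start site, on the gene's own strand, from the RefSeq table of assembly GRCm38.p6. The Pcsk1 promoter lies at chr13:75089607-75089906, that of Ero1lb at chr13:12565633-12565932 and that of Pcsk2 at chr2:143545883-143546182, all on the plus strand.
Pcsk1: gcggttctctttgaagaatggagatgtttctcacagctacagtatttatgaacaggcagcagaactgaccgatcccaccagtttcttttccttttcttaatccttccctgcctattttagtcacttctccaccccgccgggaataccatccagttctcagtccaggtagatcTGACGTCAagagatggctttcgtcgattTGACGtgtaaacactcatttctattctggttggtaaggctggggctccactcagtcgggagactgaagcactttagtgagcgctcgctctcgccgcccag
Ero1lb: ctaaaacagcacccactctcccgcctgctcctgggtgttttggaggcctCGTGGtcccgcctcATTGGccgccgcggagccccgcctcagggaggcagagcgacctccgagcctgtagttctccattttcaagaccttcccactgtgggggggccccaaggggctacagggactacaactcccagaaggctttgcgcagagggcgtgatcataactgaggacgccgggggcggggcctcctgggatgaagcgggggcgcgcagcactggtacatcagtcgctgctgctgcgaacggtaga
Pcsk2: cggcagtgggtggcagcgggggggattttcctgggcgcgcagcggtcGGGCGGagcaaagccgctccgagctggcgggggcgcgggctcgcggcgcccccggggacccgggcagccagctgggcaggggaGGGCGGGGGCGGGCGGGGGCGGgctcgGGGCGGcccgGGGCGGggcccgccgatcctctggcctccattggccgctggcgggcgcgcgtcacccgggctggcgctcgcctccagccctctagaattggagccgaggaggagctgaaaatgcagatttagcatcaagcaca
Capitals in the Pcsk1 run mark the cAMP response element TGACGTCA, which begins at position -78, and a further copy of its first 5 letters, TGACG, at -50. The full element was present on either strand in 1.79% of 32851 promoters of the same length, and TGACG in 20.8% of them. Capitals in the Ero1lb run mark the fixed letters of 1 match to the ER stress element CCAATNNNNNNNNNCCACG, which reads on the opposite strand from -201 and was present in 0.119% of promoters. Its outer letters are a CCAAT box and a CCACG core, which 37.4% and 32.8% of promoters hold on their own. Capitals in the Pcsk2 run mark 7 GC boxes (GGGCGG), some of them overlapping, from -203 to -83, a motif held by 35.7% of promoters. The Pcsk2 promoter was 76.3% G and C, that of Ero1lb 64.7% and that of Pcsk1 49.3%. These matches are descriptions of letters. No binding was measured.

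Per transcript length, the 7 genes differed widely in level. Cpe (ENSMUSG00000037852, chromosome 8, 64592558 to 64693040, minus strand of GRCm38) was the most abundant, with a median of 2847 TPM and a range over all mice of 1905 to 5203 TPM. Scg5 (ENSMUSG00000023236, chromosome 2, 113776362 to 113829121, minus strand) followed with 1646 TPM (643 to 4008). Its client Pcsk2 (ENSMUSG00000027419, chromosome 2, 143546156 to 143816285, plus strand) had 965 TPM (587 to 1429). The RNA of the partner protein was thus higher than that of the convertase it serves.

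Ero1lb (ENSMUSG00000057069, chromosome 13, 12565883 to 12609526, plus strand) had a median of 666 TPM (344.4 to 1109). Pcsk1 (ENSMUSG00000021587, chromosome 13, 75089826 to 75132498, plus strand) had 213.9 TPM (106.1 to 418), below Pcsk2. Pam (ENSMUSG00000026335, chromosome 1, 97795114 to 98095646, minus strand) had 152.4 TPM (87 to 307.5). With the longest transcript as the length in place of all exons, the mean for Pam was 366.4 TPM against 193.9 TPM for Pcsk1, so the order of those 2 genes depends on the length used.

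Pcsk1n (ENSMUSG00000039278, X chromosome, 7919822 to 7924410, plus strand) had no single level. Its median was 14.9, 15.0 and 15.7 TPM in bands 1, 2 and 3 and 807 TPM in band 4. It stood above Pcsk1 in all 94 mice of band 4 and below Pcsk1 in every mouse of bands 1 to 3. In band 4 it also exceeded Ero1lb, except in 6 mice. Its place in the order of levels is therefore different in the 2 sets of libraries.

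Neighbours in the order differed in nearly every mouse. Cpe exceeded Scg5 in 98.7% of all mice, and Scg5 exceeded Pcsk2 in 92.1%. Pcsk2 exceeded Ero1lb in 94.7% and Pcsk1 exceeded Pam in 88.6%. Over all mice the last pair had a mean log2 ratio of 0.45 ± 0.37 (SD). In bands 1 to 3 alone Pcsk2 and Ero1lb were closer (0.44) than Pcsk1 and Pam (0.52).

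**Figure D1:**
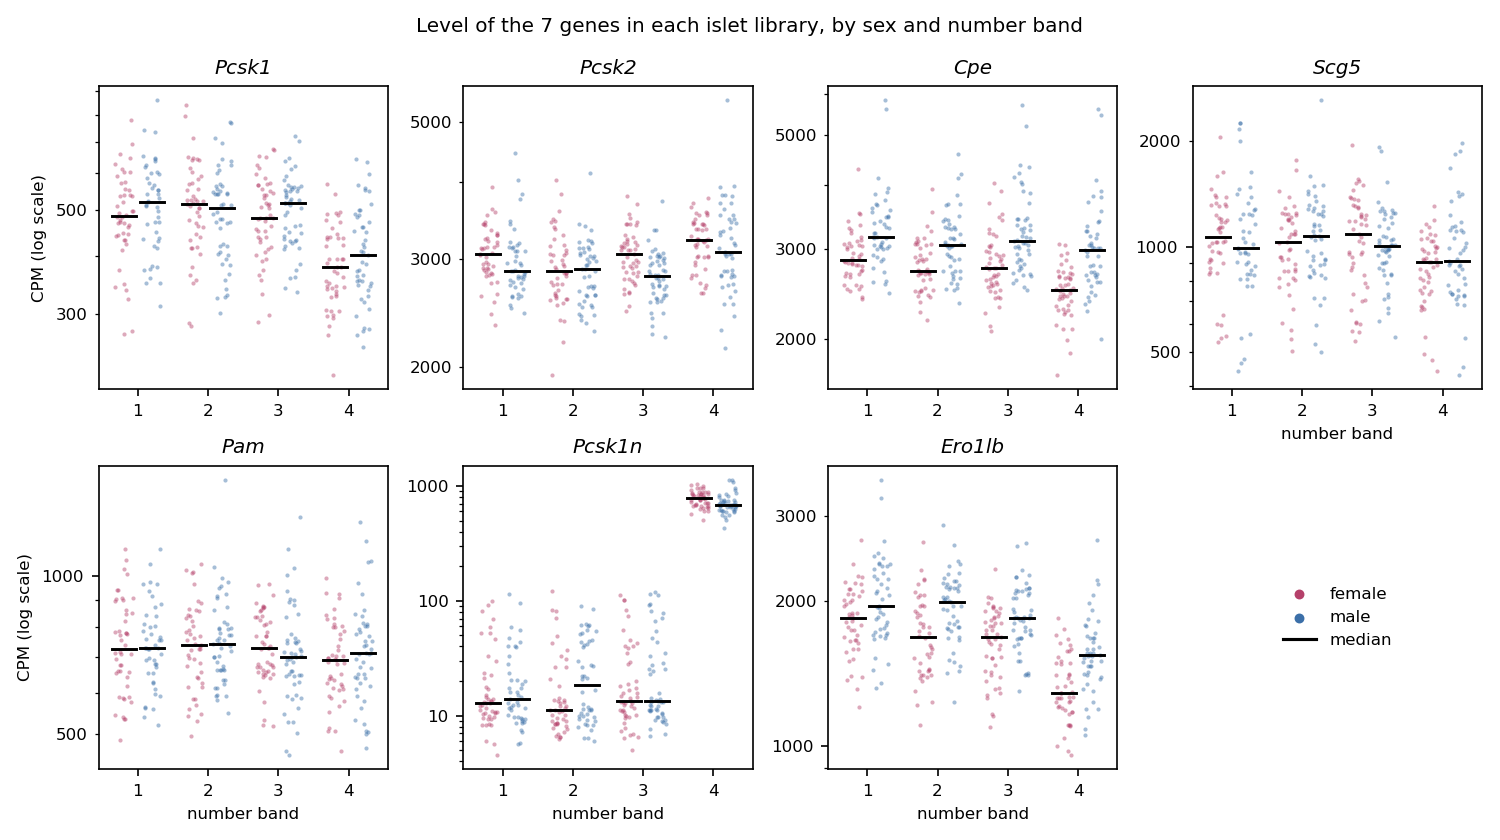
CPM of each of the 7 genes (log axis) in every islet library, by number band (horizontal axis), with females to the left of males in each band; each point is 1 mouse and black bars are medians. For 6 genes the ranges of the bands overlap, whereas Pcsk1n lies between 428.4 and 1136 CPM in band 4 and between 4.51 and 120.5 CPM in bands 1 to 3.

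How far mice differed from each other varied widely among the 7 genes. Spread was taken as the SD of log2 CPM between mice of the same sex and band, and ranked among 11107 genes with a mean of at least 5 CPM. Pcsk2 was the most even, with an SD of 0.17, at percentile 22.2 of all genes. Cpe (0.22), Ero1lb (0.25), Pam (0.28) and Pcsk1 (0.31) lay between percentiles 43.9 and 68.5, around the median gene at 0.24. Scg5 varied more, with an SD of 0.44 at percentile 82.9.

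In folds, the mouse at the 95th percentile of Pcsk2 had 1.45 times the level of the mouse at the 5th percentile. The same ratio was 1.60 for Cpe, 1.77 for Ero1lb, 1.89 for Pam, 2.04 for Pcsk1 and 2.71 for Scg5. PC2 and its partner 7B2 therefore sit at opposite ends of the spread among the 6 genes other than Pcsk1n, although both are on chromosome 2 and act together. For Pcsk1n the SD was 0.26 in band 4 and 1.14 in bands 1 to 3.

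Between bands, 6 of the 7 genes differed by edgeR's quasi-likelihood F test, Pam being the exception (adjusted p = 0.217). This is close to the background, since 87.7% of all tested genes differed between bands. On the log2 scale band 4 minus band 1 was 5.04 for Pcsk1n, -0.42 for Ero1lb, -0.34 for Pcsk1, -0.22 for Scg5, -0.17 for Cpe, 0.07 for Pcsk2 and -0.07 for Pam. Without band 4, Ero1lb alone of the 7 differed between bands (adjusted p = 0.00374, edgeR), beside 35.3% of all genes tested. In the authors' deposited log2 values the bands have nearly equal means, with a median range over genes of 0.00833 against 0.374 in log2 CPM, and limma called 0 genes between bands there (0 at an unadjusted p under 0.05).

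Cpe and Ero1lb were lower in female islets, and Pcsk2 was slightly higher. The other 4 genes did not pass the test. In bulk islets, fewer cells of a type and less RNA per cell cannot be told apart. For the whole table, 50.6% of 16927 genes were called by sex (edgeR's quasi-likelihood F test with band as a covariate, Benjamini-Hochberg adjusted p under 0.05), 23% higher and 27.6% lower in females, so 3 calls among 7 genes is near the background.

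Cpe ranged from 1696 to 4295 CPM in females (median 2705) and from 1999 to 5859 CPM in males (median 3064). The ranges overlap widely, and the highest values are those of males. Female islets averaged 2754 ± 387.9 CPM and male islets 3194 ± 633 CPM (SD over all mice of a sex). The log2 difference, female minus male, was -0.22 ± 0.0234 (SE; adjusted p = 1.54e-16, edgeR). It was lower in females within each band, by 0.19, 0.16, 0.21 and 0.31 on the log2 scale in bands 1 to 4, and passed the test in each.

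Ero1lb ranged from 958 to 2675 CPM in females (median 1627) and from 1055 to 3563 CPM in males (median 1815). Its means were 1633 ± 335.5 CPM in females and 1862 ± 385.3 CPM in males, a log2 difference of -0.19 ± 0.0261 (adjusted p = 2.34e-11, edgeR). Within bands the difference was -0.15, -0.20, -0.17 and -0.24, and that of band 1 alone missed the threshold (adjusted p = 0.0535). Ero1lb was therefore lower in females throughout, as Ins1 and Ins2 also were, by 0.39 and 0.32 on the log2 scale. Set against insulin, Ero1lb was higher in females: the log2 ratio of Ero1lb to the sum of Ins1 and Ins2 averaged -6.13 ± 0.47 in females and -6.27 ± 0.48 in males (SD; difference 0.14 ± 0.0326 SE; adjusted p = 2e-04 over 4 ratios, permutation test within bands).

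Pcsk2 ranged from 1940 to 4029 CPM in females (median 3051) and from 2149 to 5434 CPM in males (median 2876). The log2 difference was 0.05 ± 0.0182 (adjusted p = 0.0193, edgeR), positive in each band, and larger in band 3 (0.12) than in bands 1, 2 and 4 (0.031, 0.020 and 0.013). Band 3 was the only one that passed the test on its own. The log2 ratio of Pcsk1 to Pcsk2 was -2.73 ± 0.39 in females and -2.63 ± 0.34 in males (difference -0.09 ± 0.0321; adjusted p = 0.00966, permutation test), and without band 4 the adjusted p was 0.06. Within bands 1 to 4 the difference was -0.11, 0.025, -0.16 and -0.12, so band 2 went the other way. The ratio of Pcsk2 to its partner Scg5 differed by 0.10 ± 0.0455 (adjusted p = 0.0489), and without band 4 that difference did not pass either (adjusted p = 0.197).

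The remaining 4 genes had log2 differences of -0.04 ± 0.0319 for Pcsk1 (adjusted p = 0.27), -0.06 ± 0.0444 for Scg5 (0.245), -0.02 ± 0.0287 for Pam (0.636) and -0.13 ± 0.11 for Pcsk1n (0.318), all by edgeR. The standard error of Pcsk1n is the largest of the 7, and its mice also differ most. Within bands its difference was -0.00032, -0.40, -0.27 and 0.13, none of which passed. No member passed a test of its sex effect between bands, which 1.12% of all genes did (edgeR, interaction of sex with band). Males were more spread out than females for Cpe, with SDs of log2 CPM of 0.18 in females and 0.25 in males (adjusted p = 0.0407, limma on absolute deviations). That test called 5.25% of 14333 genes, 738 of the 752 wider in males, and without band 4 Cpe did not pass it (adjusted p = 0.278).

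Markers of islet cell types also differed by sex. Of 10 beta cell markers 2 were higher and 5 lower in females. Their summed level was 2069 to 5924 CPM in females and 2067 to 6064 CPM in males. Of 8 alpha cell markers 7 were higher and none lower in females. They summed to 271.3 to 940 CPM in females and 243.8 to 1036 CPM in males. Most of that sum is Tmem27 (mean 388.4 CPM), the marker that did not differ (log2 difference 0.018, adjusted p = 0.697, edgeR). Of 7 delta and PP cell markers 5 were higher and 2 lower in females, summing to 161.9 to 499 CPM in females and 170.8 to 455 CPM in males. All 10 endothelial markers were lower in females, with sums of 374.5 to 721 CPM in females and 405.7 to 1212 CPM in males. Of 9 duct markers 3 were higher and 2 lower, and of 10 macrophage markers 2 were higher and 1 lower. Of 10 stellate markers 4 were lower and of 13 acinar markers 1, with none higher. The only lymphocyte marker tested was higher in females. No marker of these lists was at 0 in the median library, and Gcg, the defining hormone of alpha cells, was higher in females by 1.05 ± 0.0663 on the log2 scale (adjusted p = 1.38e-40, edgeR).

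When the mean levels of 8 cell marker lists (alpha, delta and PP, and 6 nonendocrine types) were added to the model, the sex difference of Cpe was -0.12 ± 0.0273 (adjusted p = 0.000189, edgeR). That of Ero1lb was -0.047 ± 0.0303 (adjusted p = 0.275) and that of Pcsk2 was -0.0059 ± 0.0215 (0.884). Cpe kept its call in this model, and Ero1lb and Pcsk2 did not.

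**Figure D2:**
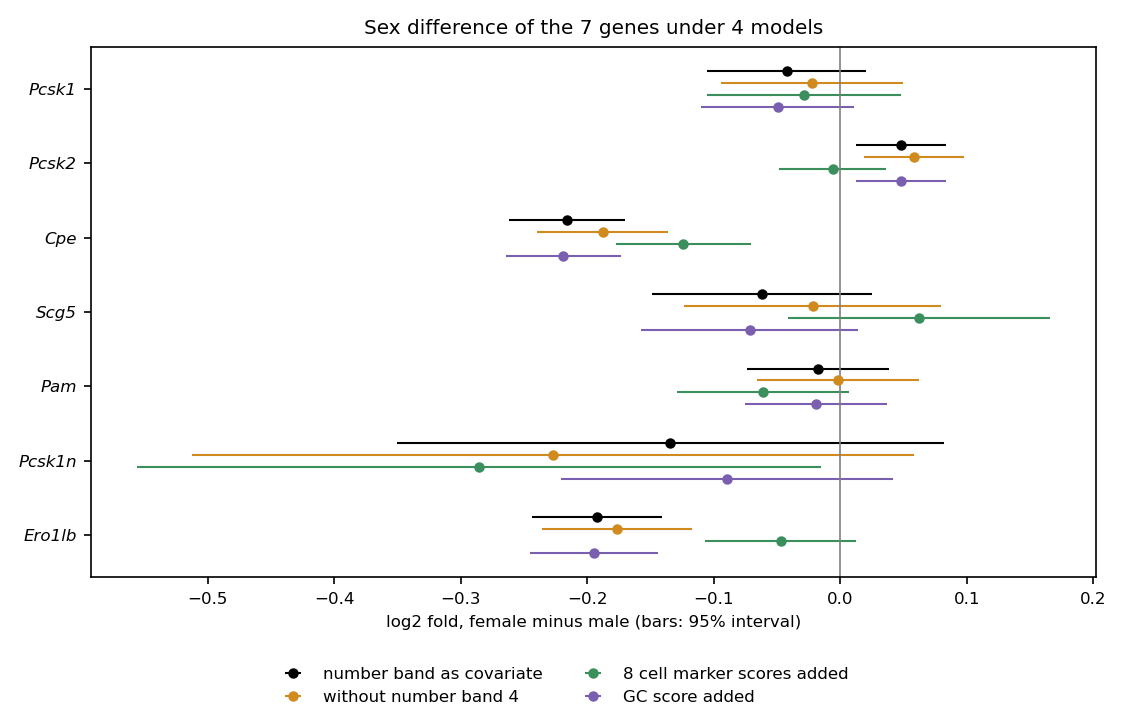
Log2 difference of each gene, female minus male (horizontal axis), under 4 models, with bars of a 95% normal interval: number band as a covariate, the same without band 4, with 8 cell marker scores added, and with the GC score of the library added. Cpe stays below 0 in all of them, and Ero1lb (-0.047) and Pcsk2 (-0.0059) lie near 0 once the marker scores are added.

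The other genes of the pathway are given by list, and no list was tested as a whole. Over all tested genes the median log2 difference was -0.01, with the 23% higher and 27.6% lower in females given above. Of 5 granins, the acidic cargo proteins of granules, 4 were lower in females and none higher, with a median of -0.13. Scg2 fell by 0.32 on the log2 scale, Vgf by 0.28, Chgb by 0.13 and Scg3 by 0.11, whereas Chga had -0.0091 (adjusted p = 0.873). Of 10 chaperones of the endoplasmic reticulum, 8 were lower in females and none higher (median -0.12). Those with the smallest adjusted p were Creld2 (-0.37), Sdf2l1 (-0.31), Hyou1 (-0.14) and Dnajc3 (-0.15).

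The list of disulphide-forming enzymes, to which Ero1lb belongs by function, had 7 of 13 tested members lower in females and none higher (median -0.04). Prdx4, a peroxidase that feeds disulphide formation, was lower by 0.35, Qsox1 by 0.22, P4hb (protein disulphide isomerase) by 0.18 and Pdia6 by 0.11. Ero1l, the paralog of Ero1lb, had a log2 difference of 0.0054 ± 0.0241 (adjusted p = 0.873, edgeR). Of 14 genes of the translocon and the signal peptidase, which admit precursors to the endoplasmic reticulum and remove their signal peptide, 10 were lower in females and none higher (median -0.07). Ssr4 was lower by 0.25, Sec11c by 0.22, Spcs1 by 0.19 and Sec62 by 0.11.

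Other lists had calls in both directions or counts near those shares. Of 15 subunits of the proton pump that acidifies granules, 5 were higher and 2 lower in females (median 0.01), with Atp6v1e1 higher by 0.18 and Atp6v1b2 by 0.14. Of 7 other convertases 2 were higher and 3 lower: Pcsk5 was higher by 0.33 at a mean of 0.515 CPM, Pcsk4 was lower by 0.21, Furin by 0.10 and Mbtps1 by 0.05. Of 11 other peptidases and peptide-modifying enzymes 3 were higher and 3 lower. Of 6 genes for the copper and ascorbate supply of Pam, 2 were lower and none higher, Slc31a2 by 0.13 and Cyb561, the granule membrane cytochrome that regenerates ascorbate, by 0.09. Among 22 islet transcription factors 6 were higher and 9 lower in females. Myt1 and Insm1 were lower by 0.28 and 0.26.

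With sex and band means removed, most of the 7 genes rose and fell together across mice. Of 21 pairs, 15 passed a permutation test (mice permuted within sex and band, 100000 resamples, two-sided, adjusted over 91 pairs of members and hormones), 12 positive and 3 negative. The 3 negative pairs all include Pcsk1n. The smallest absolute r that passed was 0.12, and 41.5% of all pairs of a member with any of 11106 genes reached it, against 71.4% of the member pairs. The closest pair was Pcsk1 and Ero1lb, with r = 0.43 and rho = 0.40 (adjusted p = 3.37e-05, which rests on 1e-05, the smallest p the permutations can give). Within bands r was 0.36, 0.46, 0.41 and 0.49, and without the 2 mice farthest from the median of Pcsk1 it was 0.42. By sex it was 0.45 in females and 0.41 in males.

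Cpe and Pam were correlated with r = 0.38 and rho = 0.32, Pcsk2 and Pam with r = 0.36 and rho = 0.33, and Pcsk2 and Cpe with r = 0.34 and rho = 0.28, each with the same adjusted p of 3.37e-05. For Pcsk2 and Cpe r was 0.28 without the 2 mice farthest from the median of Pcsk2. Pcsk1 correlated with Cpe (r = 0.32), Pcsk2 (0.29) and Pam (0.28). Cpe was positively correlated with Pcsk1, Pcsk2, Pam, Ero1lb (0.27) and Scg5 (0.27), more members than any other gene of the group. Cpe also reached the smallest absolute r that passed with 50.2% of all genes. That share was 58.8% for Pcsk1n and lay between 32.5% (Pcsk2) and 39.9% (Pam) for the other members.

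PC2 and its partner 7B2 were only weakly tied at the RNA level. Pcsk2 and Scg5 had r = 0.15 and rho = 0.088, and the rank correlation did not pass (unadjusted p = 0.0938, permutation test). Within bands r was 0.20, 0.068, 0.061 and 0.24. Scg5 with Pam (rho = 0.10) and Scg5 with Ero1lb (rho = 0.071) likewise passed with Pearson's r and not with ranks.

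The levels of some hormone genes moved with these enzymes as well. Of 70 pairs of a member and a hormone gene, 40 passed the same test (57.1%, beside the 41.5% for pairs with any gene), 22 positive and 18 negative. Of 10 hormones, 4 positive and 5 negative passed with Ero1lb and 3 and 5 with Cpe, beside 33% and 50.2% of any genes. The calls were fewer for Pcsk1 (3 and 1, beside 38.4%), Pcsk2 (3 and 1, 32.5%), Pam (2 and 2, 39.9%) and Scg5 (2 and 3, 37.7%). Pcsk1n had 5 and 1, beside 58.8%. Ero1lb rose with Ins2 (r = 0.40, rho = 0.37; 0.40, 0.25, 0.29 and 0.64 in bands 1 to 4), Ucn3 (0.28), Iapp (0.26) and Ins1 (0.24), all products of beta cells. It fell with Gcg (-0.29), Pyy (-0.28), Ppy (-0.28) and Sst (-0.20), the products of the other endocrine cells. By r with Ero1lb, Ins2 ranked 6 and Pcsk1 ranked 4 among 11106 genes.

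Cpe showed a similar division for these hormones, apart from Ucn3. Cpe was correlated with Iapp (r = 0.36, rho = 0.27), Ins2 (0.33) and Ins1 (0.25) and, negatively, with Pyy (-0.35), Sst (-0.33), Ppy (-0.29) and Gcg (-0.18; rho = -0.077, which did not pass). With Ucn3 its r was -0.08, which did not pass. The beta cell marker score went against Cpe (-0.25) and with Ero1lb (0.30). Scg5 was correlated with Iapp (0.25) and Ins2 (0.21) and negatively with Sst (-0.24). Pcsk1, the convertase typical of beta cells, was correlated with Ins2 (0.21), Iapp (0.21) and Npy (0.19) and negatively with Pyy (-0.17). The correlations of Pcsk1 with hormones were the weakest of these.

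Pcsk2 was the exception among the enzymes, with its highest hormone correlation for Gcg (r = 0.23, rho = 0.31; 0.12, 0.42, 0.29 and 0.17 in bands 1 to 4). It also rose with the alpha cell marker score (r = 0.26; adjusted p = 5.25e-05 over 63 pairs of a member and a score), while Ero1lb fell with that score (-0.36). The beta cell score went with Ero1lb (0.30) and Pcsk1 (0.24), and against Scg5 (-0.33), Pam (-0.30) and Cpe (-0.25). With Pcsk1n it had r = -0.41 in band 4 and 0.40, 0.31 and 0.53 in bands 1, 2 and 3. The endothelial score went with Scg5 (0.24) and Cpe (0.22), and the stellate score with Scg5 (0.26), Pam (0.20) and Cpe (0.18) and against Pcsk1 (-0.21). By ranks the endothelial score with Cpe (rho = 0.10) and the stellate score with Pam (0.10) and Cpe (0.031) did not pass. Cd79a, a B cell gene at a mean of 3.26 CPM and the only gene of its list that was tested, went against Cpe (-0.26), Scg5 (-0.25), Pcsk2 (-0.23) and Pam (-0.23).

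The 8 marker scores together took 16.8% of the variance between mice of Ero1lb, 15.1% of that of Cpe and 14.5% of that of Pcsk2, and between 7.16% and 12.1% for the other 4 genes. With them removed, 15 member pairs and 33 member and hormone pairs passed. The share of pairs with any gene that pass in this setting was not measured. Pcsk1 and Ero1lb then had r = 0.44 and Ero1lb and Ins2 0.30. Ero1lb and Gcg had 0.029, which did not pass. Pcsk2 and Gcg had 0.13 in females and 0.027 in males with the scores removed. Over 9 settings that use both sexes, r of Pcsk2 and Gcg ran from 0.066 to 0.28, and the pair did not pass in all of them.

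**Figure D3:**
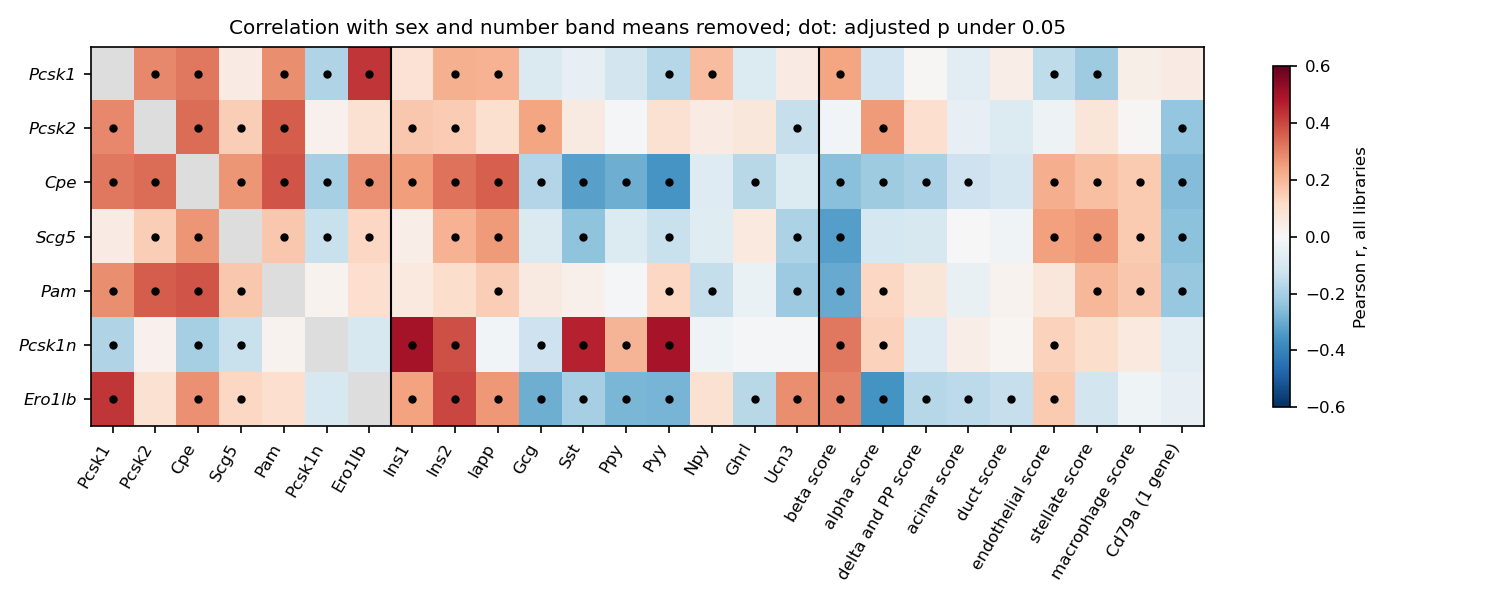
Pearson r (colour, from -0.6 in blue to 0.6 in red) of each of the 7 genes (rows) with the other members, 10 hormone genes and 9 cell marker scores (columns) over all mice, with sex and band means removed; dots mark an adjusted p under 0.05 and grey marks a gene with itself. Pcsk1, Pcsk2, Cpe, Pam and Ero1lb form a mostly red block at the left, and over all bands together Pcsk1n is red with Ins1 (0.50), Pyy (0.50) and Sst (0.46).

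Of the 91 pairs, 21 had correlations that differed between the sexes (difference of Fisher's z, sex permuted within band, adjusted p under 0.05), 11 higher and 10 lower in females. How often pairs of a member with any other gene differ in this way was not measured, so the count has no background. Among these 21 pairs the direction went with the kind of hormone. With hormones of alpha, delta and PP cells the correlations of Pam, Scg5, Cpe, Pcsk2 and Ero1lb were higher in females, and with the beta cell hormones Ins1, Ins2 and Iapp, or with each other, they were higher in males. Pcsk2 and Gcg had r = 0.51 in females and 0.059 in males (difference of z 0.50; adjusted p = 0.0082, permutation test). Pam and Gcg had 0.34 in females and -0.14 in males (0.50; 0.0036).

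Cpe and Iapp had r = 0.098 in females and 0.50 in males (difference of z -0.45; adjusted p = 0.0079, permutation test), and Pcsk1 and Pcsk2 had 0.10 in females and 0.44 in males (-0.37; 0.0082). Cpe and Pam had 0.20 in females and 0.49 in males. The 2 convertases were therefore correlated less closely in females. By ranks within sex and band, Cpe and Iapp had 0.085 in females and 0.40 in males, and Pcsk2 and Gcg had 0.46 in females and 0.18 in males. By ranks 14 of the 21 pairs passed.

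All 21 pairs passed with the GC score removed as well. Without band 4, 5 of the 21 passed: Pam with Gcg, Pam with Sst, Cpe with Iapp, Cpe with Gcg and Scg5 with Pyy. With the 8 cell marker scores removed, none of the 91 pairs passed (6 had an unadjusted p under 0.05, permutation test).

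**Figure D4:**
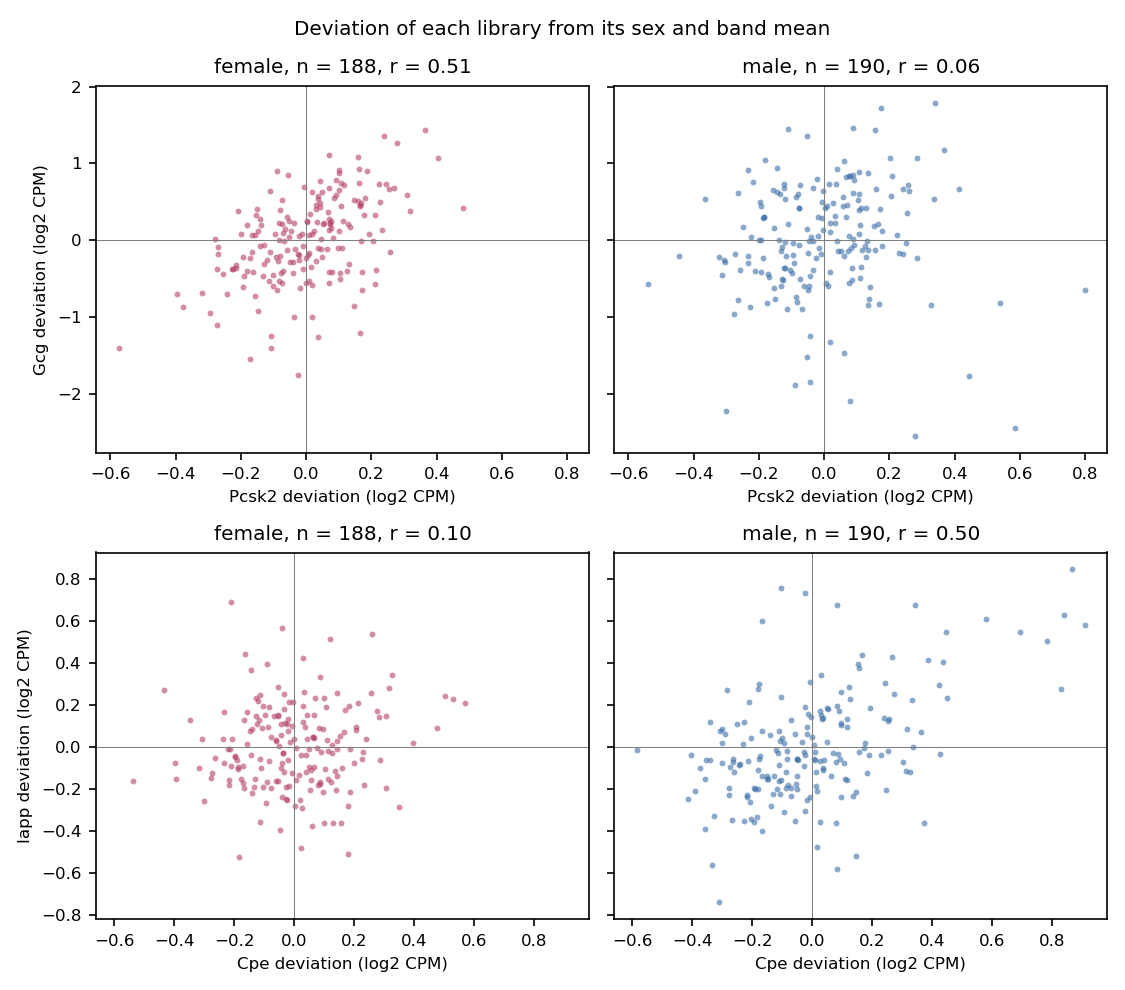
Deviation of each library from the mean of its sex and band (log2 CPM) for Pcsk2 and Gcg (top) and for Cpe and Iapp (bottom), females left and males right; each point is 1 mouse. Pcsk2 and Gcg are correlated in females (r = 0.51) and hardly in males (0.059), where a few mice have high Pcsk2 and low Gcg; Cpe and Iapp are correlated in males (0.50) and hardly in females (0.098).

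Pcsk1n differed from the other 6 genes in its level, its spread and the genes it moved with. In band 4 it ranged from 503 to 1031 CPM in females (median 789) and from 428 to 1136 CPM in males (median 683). In bands 1 to 3 it ranged from 4.51 to 120.5 CPM in females (median 12.9) and from 5.63 to 118.9 CPM in males (median 13.8). No library of bands 1 to 3 came near the lowest library of band 4, in either sex.

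The level of Pcsk1n and the genes it moved with went with base composition, with exceptions given below. The longest Pcsk1n transcript is 57.3% G and C, at percentile 88.8 of the expressed genes, and that of Pcsk1 is 40.6%, at percentile 8.34. Across 11080 genes the change between band 4 and band 1 had a rho of 0.80 with GC content, and genes are not independent replicates. A GC score per library, the mean log2 level of the 1091 most GC-rich genes minus that of the 1091 most GC-poor, had medians of -1.24, -1.19 and -1.16 in bands 1 to 3 and 0.34 in band 4. Within sex and band it had r = 0.63 with Pcsk1n in band 4 and 0.82 in bands 1 to 3. For the other members the same r, over all bands, lay between -0.27 (Pcsk1) and -0.01 (Pcsk2).

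The gene closest to Pcsk1n was Cox6a1, a subunit of cytochrome c oxidase, with r = 0.94 over all mice and 0.87 with the GC score removed. Tpgs1 (0.93), Tpt1-ps3 (0.91), Aes (0.91) and Akt1s1 (0.91) followed, and the lowest were Ppig (-0.73), Rbm6 (-0.72) and Brd7 (-0.67). Tpt1-ps3 is 46.1% G and C, at percentile 32.4, whereas Cox6a1, Tpgs1, Aes and Akt1s1 lie between percentiles 89.2 and 99.6. On the log2 scale band 4 exceeded band 1 by 2.00 for Tpt1-ps3 and by 1.78 for Cox6a1, which is at percentile 99.1. Of 11106 genes 4.78% had r of at least 0.5 with Pcsk1n, against 0.153% with Cpe. Across genes, r with Pcsk1n had a rho of 0.71 with GC content. What sets the GC score of a library was not tested.

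The correlations of Pcsk1n with other members and hormones depended on the band and on the GC score. With Cpe it had r = 0.38 in band 4 and -0.29 in bands 1 to 3 (permutation test of the difference, adjusted p = 0.00091 over 91 pairs), and with Gcg 0.34 in band 4 and -0.17 in bands 1 to 3 (0.00182). With Ins1 it had 0.18 in band 4 and 0.56 in bands 1 to 3, and with Sst 0.091 in band 4 and 0.53 in bands 1 to 3. With the GC score removed, the negative correlations of Pcsk1n with Pcsk1 and Scg5 became 0.042 and 0.026, which did not pass, while those with Pyy (0.43), Ins2 (0.32), Sst (0.30) and Ins1 (0.20) were positive and passed the test.

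Band 4 also differed from the others in how the enzymes followed insulin. With Ins2, Pcsk1 had r = 0.52 in band 4 and 0.077 in bands 1 to 3, and Cpe had 0.56 in band 4 and 0.17 in bands 1 to 3. Pcsk2 had 0.41 in band 4 and -0.011 in bands 1 to 3, and Ero1lb had 0.64 in band 4 and 0.32 in bands 1 to 3. Each of these differences passed the test. Those of Scg5 with Ins2 (0.32 in band 4 and 0.14 in bands 1 to 3) and Pam with Ins2 (0.12 and 0.058) did not. Pcsk1n with Ins2 went the other way (0.056 in band 4 and 0.46 in bands 1 to 3) and passed. In all, 15 of the 91 pairs passed, 2 between members and 13 with hormones. How often pairs of a member with any other gene differ between band 4 and the rest was not measured.

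**Figure D5:**
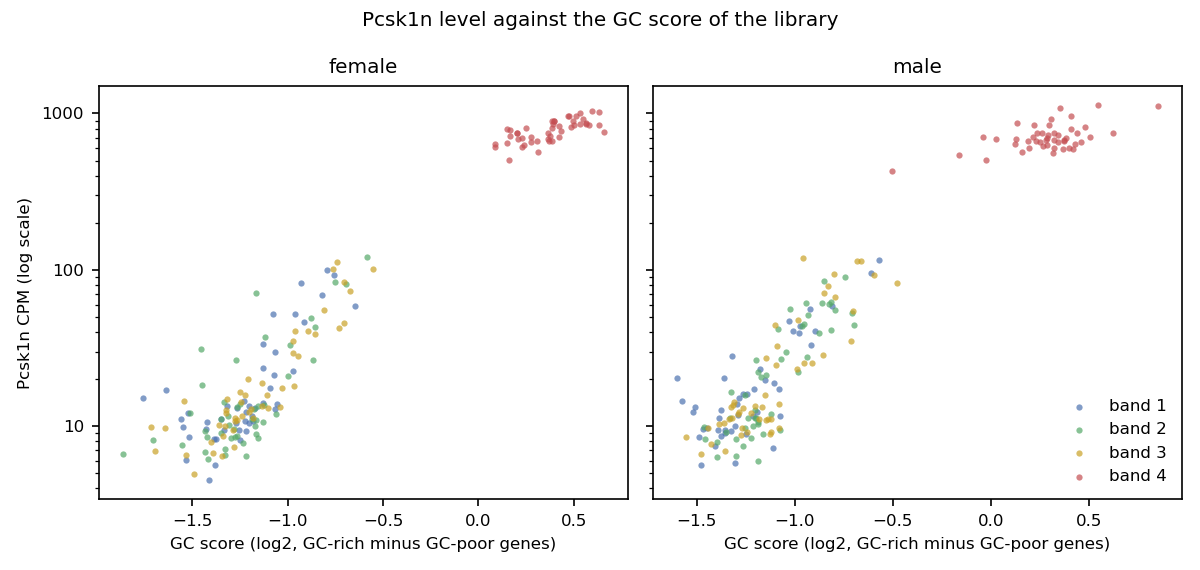
CPM of Pcsk1n (log axis) against the GC score of the library, the mean log2 level of GC-rich minus GC-poor genes, in females (left) and males (right), coloured by number band; each point is 1 mouse. Pcsk1n rises with the score inside bands 1 to 3 (r = 0.82 with sex and band means removed), and band 4 stands apart at the upper right.

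By a fixed rule, the 5 genes with the highest and the 3 with the lowest r were named for each member, over all mice and among genes with a mean of at least 5 CPM and a plain symbol, other members left out. Cpe had the closest company apart from Pcsk1n. Its highest were Erlec1, a lectin of the endoplasmic reticulum (r = 0.61), Scg3, a granin of the granule membrane (0.605), Nucb2, the precursor of nesfatin (0.58), Ccpg1, a receptor for the autophagy of the endoplasmic reticulum (0.55), and Tmem59 (0.54). Its lowest were Ankfy1 (-0.51), the mRNA export factor Alyref (-0.51) and Wdr18 (-0.50). For 95% of genes r with Cpe was below 0.28. These values moved little with the GC score removed, to 0.60 for Erlec1 and Scg3.

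Pcsk2 was closest to Cpn1, the catalytic subunit of carboxypeptidase N (r = 0.49), Aplp1 (0.46), Pappa2, a protease of insulin-like growth factor binding proteins (0.45), Sdf4 (0.44) and Ttr, transthyretin (0.42), and farthest from Slc44a1 (-0.42), S100a6 (-0.40) and Mreg (-0.40). Pcsk1 was closest to Fam46a (0.51), Gng12, a G protein gamma subunit (0.48), Ift57 (0.48), Shc4 (0.46) and Orc6 (0.45), and farthest from the creatine transporter Slc6a8 (-0.44), Mfsd12 (-0.42) and Prkd2 (-0.41). Gng12 was also the second of those named for Ero1lb (0.44), after Car10 (0.45) and before Slc35f1 (0.43), Pdcd4 (0.41) and Ins2 (0.40). The lowest for Ero1lb were the fatty acid receptor Ffar4 (-0.43), the somatostatin receptor Sstr2 (-0.42) and Ass1 (-0.40).

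Pam was closest to the elongation factor Ell2 (r = 0.50), Crem, a transcription factor of the cAMP pathway (0.49), Desi2 (0.47), Etv1 (0.45) and Spred3 (0.45), and farthest from Slc35b4, Agfg2 (each -0.49) and Med22 (-0.47). Scg5 was closest to Fmn1 (0.41), Rps14 (0.39), Tmem27 (0.39), Sdf4 (0.39) and Itga1 (0.39), and farthest from Aqr (-0.44), Jph3 and Fbrsl1 (each -0.41). Fmn1 and Aqr lie on chromosome 2, as Scg5 does. By mean r over the 7 members, Sdf4, a calcium-binding protein of the Golgi, came first (0.31), followed by Cpn1 (0.31), Fam46a (0.30), Nucb2 (0.30), Itfg1 (0.30), Ssr4 (0.30), Pappa2 (0.29), Pdyn, the precursor of dynorphin (0.28), Syt5 (0.28) and Ell2 (0.27). The lowest were Bid (-0.28), Tmco4 (-0.27) and Mlst8 (-0.27).

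Genes that overlap a member were examined for shared reads, and the nearest tested genes on either side for correlation. Pam overlaps B230216N24Rik on the same strand over 26.6 kb, and their r of 0.67 was the highest of Pam with any gene. B230216N24Rik had a mean of 8.11 CPM, and reads of the 2 genes cannot be told apart with certainty in the overlap. Pcsk2os1 and Pcsk2os2 lie on the strand opposite Pcsk2 and had r of -0.091 and 0.098 with it. Ell2, the right neighbour of Pcsk1 at 629 kb, had 0.25 with Pcsk1, above that of 94.1% of genes in absolute size, and Cast on the left had 0.23. Timm17b, next to Pcsk1n, had 0.39, and Edaradd and Gpr137b-ps, on either side of Ero1lb, each had 0.26. The neighbours of Cpe (Tll1 and Msmo1) and of Scg5 (Grem1 and Arhgap11a) lay between -0.017 and 0.10.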

How the data were processed

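The authors deposited estimated counts per gene (expected counts, not scaled between libraries), a table of variance-stabilised log2 values, and a gene table whose other columns give positions in megabases. Per the submitters' processing notes, GRCm38 and DESeq2 were used, in steps not given; which aligner and counter were used is not given in the sources. Of the deposited counts 67.7% are whole; those of Pcsk2 and Pam are fractional in nearly all libraries, by a tiny share. Counts were rounded to whole numbers. The members and all gene lists were chosen with earlier results of these data known.

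Genes were filtered with filterByExpr by sex (16927 kept) and tested with edgeR 4.0.16 in R 4.3.3 (TMM factors, quasi-likelihood F test, band as a covariate, Benjamini-Hochberg adjustment over all tested genes, threshold 0.05). Standard errors are the absolute log2 difference over the square root of F. Spread was tested with limma 3.58.1 on absolute deviations of log2 CPM from the median of each sex and band, for genes with a mean of at least 1 CPM. TPM was computed from exon lengths of GENCODE release M21, which held 22076 of the genes. Correlations used log2 CPM (prior count 2) less the 8 sex and band means. Their permutation tests (100000 resamples, two-sided; Python 3.11.15, NumPy 2.4.6) shuffled mice within sex and band, and those of sex differences shuffled sex within band. Cell scores are mean log2 CPM of marker lists without hormones. The text names the 7 members, 10 hormone genes, the 5 highest and 3 lowest r per member, the 10 highest and 5 lowest mean r, adjacent genes and up to 4 genes per list with the smallest adjusted p; of the last group and of the lowest means only some are given, and Chga, Ero1l, Cd79a and B230216N24Rik were named after their values were seen. Both tests were checked on simulated data. The labels call each library a different mouse, and no pair of libraries had identical counts (highest correlation 0.972). Alternatives included DESeq2 1.42.0, other size factors, each band alone, 2 females of low Xist left out, marker and GC scores as covariates, and the deposited log2 values. Sample numbers are unique to a mouse. Some items are not reported here.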

Additional observations from a re-analysis of the deposited data

Results flagged for a closer look

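The correlations of 21 pairs of genes differed between the sexes in a test of the difference itself (Fisher's z, female minus male, sex permuted within number band, adjusted over 91 pairs). Adjusted p-values ran from 0.0036 to 0.0459, permutation test. Without number band 4, 5 of them passed, and with 8 cell marker scores removed none of the 91 pairs passed (6 at an unadjusted p under 0.05). The share of such differences among pairs of a member with any other gene was not measured.

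Pam, the amidating enzyme, was in 10 of the 21 pairs. Pam and Gcg had r = 0.34 in females and -0.14 in males, a difference of z of 0.50. For Pam with Sst, r was 0.29 in females and -0.13 in males, and z differed by 0.42. With Pyy, Pam had r = 0.32 in females and -0.024 in males (difference of z 0.36). Pam and Ppy had r = 0.16 in females and -0.13 in males, a difference of z of 0.29.

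With these hormones of alpha, delta and PP cells the correlations of Pam were positive in females and at or below 0 in males. With beta cell hormones and other members they were the higher in males. Pam and Iapp had r = -0.10 in females and 0.32 in males, a difference of z of -0.43. For Pam with Ins2, r was -0.066 in females and 0.24 in males, and z differed by -0.31. With Ins1, Pam had r = -0.10 in females and 0.18 in males (difference of z -0.28). Scg5 and Pam had r = -0.055 in females and 0.34 in males, a difference of z of -0.40. For Cpe with Pam, r was 0.20 in females and 0.49 in males, and z differed by -0.33. With Ero1lb, Pam had r = -0.034 in females and 0.22 in males (difference of z -0.25).

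Cpe followed the beta cell hormones more closely in males. Cpe and Iapp had r = 0.10 in females and 0.50 in males, a difference of z of -0.45. For Cpe with Ins2, r was 0.12 in females and 0.46 in males, and z differed by -0.37. With Ins1, Cpe had r = 0.052 in females and 0.37 in males (difference of z -0.33). Cpe and Gcg had r = 0.091 in females and -0.32 in males, a difference of z of 0.42.

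Scg5 was correlated negatively with the non-beta hormones in males. Scg5 and Gcg had r = 0.14 in females and -0.24 in males, a difference of z of 0.39. For Scg5 with Pyy, r was 0.053 in females and -0.28 in males, and z differed by 0.34. With Sst, Scg5 had r = -0.048 in females and -0.37 in males (difference of z 0.34). Scg5 and Ppy had r = 0.092 in females and -0.21 in males, a difference of z of 0.30.

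The convertases and Ero1lb were in 3 further pairs. Pcsk2 and Gcg had r = 0.51 in females and 0.059 in males, a difference of z of 0.50. For Pcsk1 with Pcsk2, r was 0.10 in females and 0.44 in males, and z differed by -0.37. With Ppy, Ero1lb had r = -0.044 in females and -0.45 in males (difference of z 0.44).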

How the results depend on the processing

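No paired analysis was possible because each mouse number belongs to 1 mouse of 1 sex. Over 17 settings Cpe was called lower in females in each, from -0.31 to -0.12 on the log2 scale, Ero1lb in 14 (-0.24 to -0.047) and Pcsk2 in 12 (-0.011 to 0.12). Pcsk1n was called in 1, and Pcsk1, Scg5 and Pam in none. The cause of the changes below was not tested.

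Genes called by sex numbered 2873, 4687, 2609 and 4247 in bands 1, 2, 3 and 4 alone, where fewer mice were tested, 5395 with 6 nonendocrine scores, 3687 with 8 scores and 4740 with the alpha and delta scores alone, a setting added after seeing the data. Of the members 1 was called in band 1 alone and 1 with 8 scores. Differences that lost the call or changed sign were, in band 1, Pcsk2 0.031 and Ero1lb -0.15; in band 2, Pcsk1 0.04 and Pcsk2 0.02; in band 3, Scg5 0.05 and Pam 0.037; in band 4, Pcsk2 0.013 and Pcsk1n 0.13; and without band as a covariate, Pcsk1n 0.11. With 6 scores Scg5 had 0.031. With 8 scores Pcsk2 had -0.0059, Scg5 0.062 and Ero1lb -0.047. With the alpha and delta scores Pcsk1 had 0.0038, Pcsk2 -0.011, Scg5 0.03, Ero1lb -0.06 and Pcsk1n -0.36, the last with a call.

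Without band 4, 8 genes had a sex effect that differed between bands, 6001 differed between bands (0 in the deposited values), 1.23% of genes differed in spread and 1 ratio passed. In females alone 8 member pairs and 23 hormone pairs passed, with Scg5 and Pam at -0.055, Cpe and Gcg at 0.091, Scg5 and Pyy at 0.053 and Pam and Iapp at -0.10. In males alone Pam and Pyy had -0.024. With 8 scores removed Cpe and Gcg had 0.10 and Ero1lb and Gcg 0.029. With the GC score removed Pcsk1n had 0.042 with Pcsk1, 0.026 with Scg5, 0.24 with Iapp and 0.035 with Gcg. Of the pairs, 10 of 21 between members and 21 of 70 with hormones passed in all 9 settings that use both sexes. For these counts and those in females alone, the share for pairs of a member with any gene was not measured. Sex differences in correlation passed for 5 of the 21 pairs without band 4 and 0 with 8 scores removed, where the difference of z of Pam and Gcg was -0.031. Pcsk1n had far fewer counts in bands 1 to 3 than in band 4, although the libraries of band 4 held fewer counts in total. Whether depth affects the results for Pcsk1n was not tested.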

Other observations

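Ucn3, a hormone gene of mature beta cells, went with the helpers in opposite directions. It had r = 0.28 with Ero1lb and -0.22 with Pam, -0.19 with Scg5 and -0.14 with Pcsk2, each past the test of the other hormone pairs (permutation test, adjusted over 91 pairs). Npy was correlated with Pcsk1 (0.19) and, negatively, with Pam (-0.14). Ghrl, at a mean of 1.68 CPM, had r = -0.16 with both Cpe and Ero1lb.

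Of the lists of pathway genes, the granins had a median mean r with the 7 members of 0.11, the chaperones 0.098, the copper and ascorbate genes 0.085 and the disulphide genes 0.079, beside -0.014 for 11107 genes. Other pathway lists had -0.0004 (granule acidification) and -0.046 (other convertases), and the stellate (0.094) and endothelial (0.080) markers lay in the same range as the first lists. Single genes with a high mean r were Ssr4 (0.30), Atp6ap1, an accessory subunit of the proton pump (0.26), Spcs1 of the signal peptidase (0.26), Prdx4 (0.26) and Scg3 (0.25). No test was made of these values, and they share libraries.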
